A study of Mus musculus with 6 samples.

Results

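Cytochrome b5 and its reductases were followed here as 5 genes (Cyb5a, Cyb5b, Cyb5r1, Cyb5r3 and Cyb5r4) among 14994 genes tested. They were taken by symbol from the array annotation, and each was read from a probeset that names no other gene, the brightest where a gene had more than 1. All 5 passed the filter on dim probesets, a mean log2 intensity above 5.15 over the 6 arrays. The cells were KSL SLAM cells of mouse bone marrow, sorted as negative for lineage markers, CD48 and CD41 and positive for c-Kit, Sca-1 and CD150, a fraction rich in haematopoietic stem cells. Mice received granulocyte colony-stimulating factor (G-CSF, a cytokine that drives neutrophil production and releases stem cells into blood) under the skin at 125 mcg/kg, 2 injections per day, for 7 days, and the control mice received PBS for as long. There were 3 arrays per group, and each array was a pool from 5 to 10 mice. The sources used here do not give strain, sex or age.

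Cytochrome b5 is a small haem protein that hands single electrons to membrane enzymes, above all the desaturases and hydroxylases of fatty acid, sphingolipid and sterol synthesis and some cytochromes P450. Its reductases are flavoproteins that take the electrons from NADH. Cyb5a encodes the form of the endoplasmic reticulum and Cyb5b the form of the outer mitochondrial membrane. Cyb5r3 encodes the main reductase, which in red blood cells returns methaemoglobin to haemoglobin. Cyb5r1 encodes a related membrane reductase, and Cyb5r4 a protein that joins a cytochrome b5 domain and a reductase domain in 1 chain.

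The largest difference among the 5 genes was in Cyb5a, whose signal was 4.28-fold lower with G-CSF, while Cyb5r1 was 1.39-fold higher, and in Cyb5b, Cyb5r3 and Cyb5r4 the PBS and G-CSF means differed by 0.013 or less on the log2 scale. The genes were chosen with this same contrast in view, so their differences are given as a description with limma's standard error and with no test. In 1 of the 5 genes, Cyb5a, every G-CSF array was dimmer than every PBS array, which was so in 5.05% of all genes tested. In 1, Cyb5r1, every G-CSF array was brighter, which was so in 5.77%. In the remaining 3 the groups overlapped. By limma, fitted over all 14994 genes with Benjamini-Hochberg adjustment, 0 of the 5 were past an adjusted p of 0.05, against 0.0267% of all genes higher and 0% lower with G-CSF. At an unadjusted p under 0.05 these shares of all genes were 2.73% higher and 3.3% lower. Nothing is read from these counts for genes chosen on the contrast. Levels are log2 intensities and are not compared between genes, because probesets differ in brightness for reasons other than transcript abundance.

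**Figure D1:**
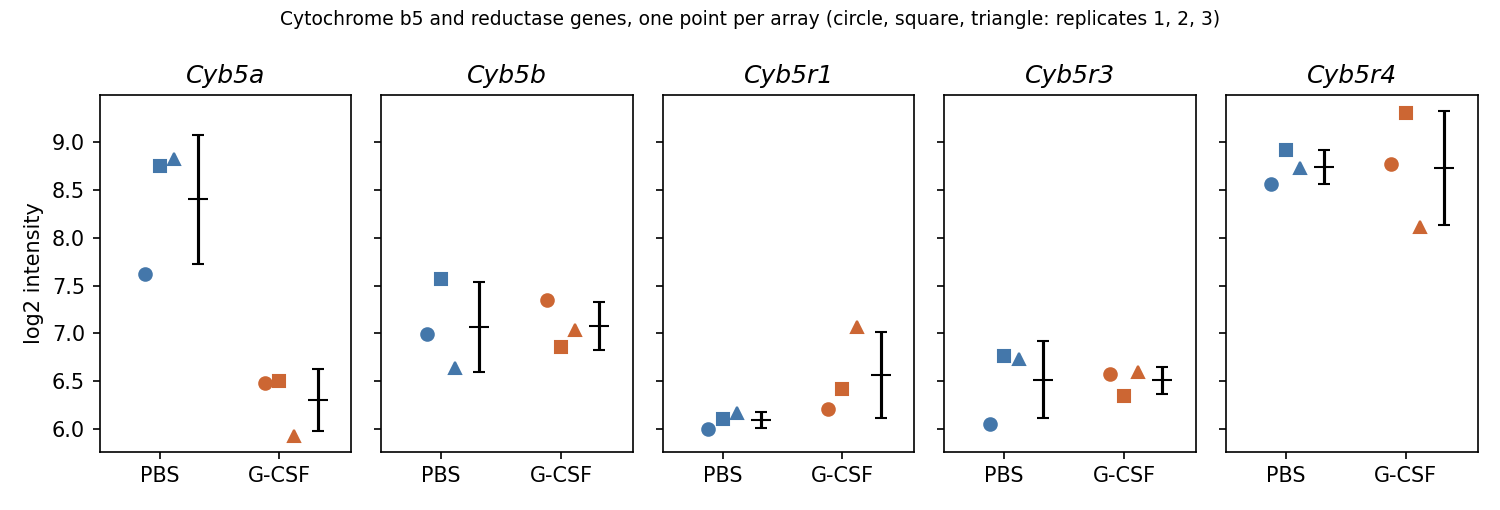
Log2 intensity of the 5 genes in every array, with PBS in blue and G-CSF in orange, symbols for replicate numbers, and the group mean with SD (n = 3) in black beside the points. Cyb5a has all G-CSF points (5.93 to 6.50) below all PBS points (7.62 to 8.83), Cyb5r1 has a narrow gap the other way, and in the other three genes the groups overlap; heights are not comparable between panels of different genes.

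Cyb5a, the microsomal electron carrier, had log2 intensities of 7.62, 8.75 and 8.83 in PBS replicates 1, 2 and 3 and of 6.48, 6.50 and 5.93 in G-CSF replicates 1, 2 and 3. PBS replicates 2 and 3 were close together and high, PBS replicate 1 lay below them, and every G-CSF array lay lower still. On the linear scale these were intensities of 197, 432 and 454 with PBS and 89.2, 90.7 and 60.9 with G-CSF. The group means were 8.40 ± 0.68 and 6.30 ± 0.32 (log2 intensity, SD, n = 3), a difference of -2.10 (SE 0.35). The lowest PBS array was above the highest G-CSF array by 1.12 on the log2 scale, close to the whole range of the PBS arrays (1.21). Leaving out PBS replicate 1, the lowest of its group, gave a difference of -2.49, and leaving out PBS replicate 3 gave -1.88. In bulk samples such as these pools, fewer cells that express a gene and less of its RNA per cell cannot be told apart.

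Of the 14994 genes, 3 had a more negative difference than Cyb5a, and these were named after their values were seen. They were Snora20 and Snord15a, which encode small nucleolar RNAs, and BC147527. Their PBS arrays were widely scattered, with an SD of 2.69 for Snora20, 1.62 for Snord15a and 1.51 for BC147527, against 0.68 for Cyb5a. In log2 intensity, Snora20 ran from 4.40 to 9.67 over its PBS arrays, and its highest G-CSF array (5.20) lay inside that range. The groups of Snord15a overlapped too, while those of BC147527 did not, with a gap of 0.30 between them. Cyb5a itself was not a quiet gene, since 12.1% of genes had a larger residual SD than its 0.53.

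**Figure D2:**
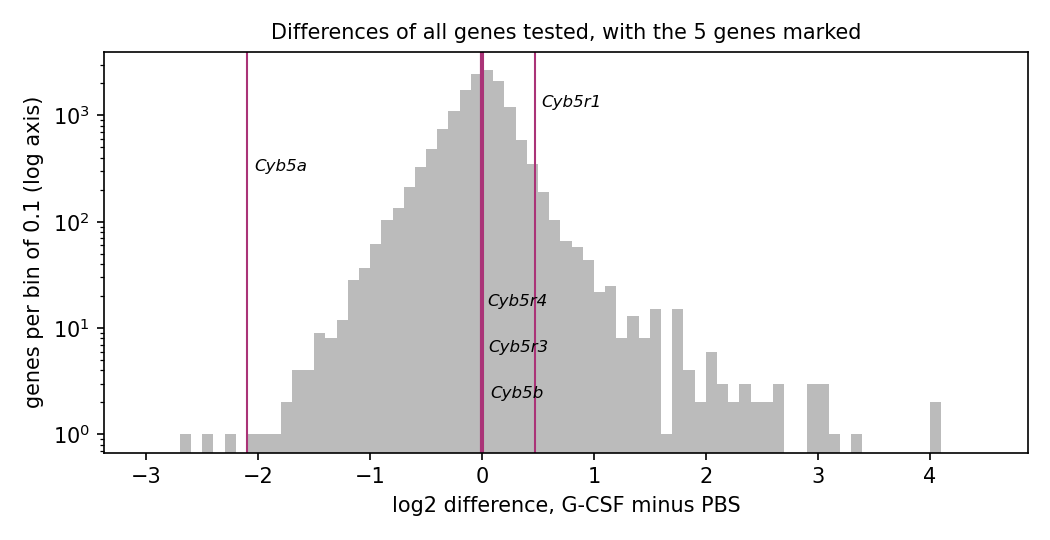
Number of genes (log axis) by log2 difference, G-CSF minus PBS, over all 14994 genes tested, with vertical lines for the 5 genes. Cyb5a at -2.10 lies in the lower tail, Cyb5r1 at 0.47 on the upper flank, and the lines of Cyb5b, Cyb5r3 and Cyb5r4 merge at the centre.

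Cyb5b, the mitochondrial cytochrome b5, did not show the pattern of Cyb5a. Its log2 intensities were 6.99, 7.57 and 6.64 in PBS replicates 1 to 3 and 7.35, 6.85 and 7.03 in G-CSF replicates 1 to 3. The highest and the lowest of the 6 were both PBS arrays, and all 3 G-CSF arrays lay between them. The means were 7.07 ± 0.47 and 7.08 ± 0.25 (SD, n = 3), a difference of 0.013 (SE 0.27). Leaving out 1 array at a time moved this difference from -0.20 to 0.27, so its sign is not settled.

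Cyb5r3, the main NADH reductase, had log2 intensities of 6.05, 6.76 and 6.73 with PBS and of 6.58, 6.35 and 6.60 with G-CSF, in the order of replicates 1 to 3. PBS replicate 1 was the lowest of the 6 arrays, as it was the lowest PBS array for Cyb5a, and the G-CSF arrays lay between it and the other PBS arrays. The means were 6.51 ± 0.40 and 6.51 ± 0.14 (SD, n = 3), a difference of -0.0072 (SE 0.23). Without PBS replicate 1 the difference was -0.24, and over all arrays left out in turn it ran from -0.24 to 0.12. The PBS arrays spanned 0.71 and the G-CSF arrays 0.25 on the log2 scale.

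Cyb5r1, the related membrane reductase, had log2 intensities of 6.0, 6.10 and 6.16 with PBS, a range of 0.16. With G-CSF they were 6.21, 6.41 and 7.06, a range of 0.85. G-CSF replicate 3 stood above the other arrays, and the lowest G-CSF array lay only 0.046 above the highest PBS array. The means were 6.09 ± 0.08 and 6.56 ± 0.45 (SD, n = 3), a difference of 0.47 (SE 0.24). Without G-CSF replicate 3 it was 0.22, and without G-CSF replicate 1 it was 0.65. Of all genes tested, 11.6% had a larger absolute difference than Cyb5r1.

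Cyb5r4, the fused cytochrome b5 and reductase, had log2 intensities of 8.56, 8.92 and 8.73 with PBS and of 8.77, 9.30 and 8.11 with G-CSF, in the order of replicates 1 to 3. The G-CSF arrays held both the highest and the lowest value, with replicate 2 lying 0.58 above and replicate 3 lying 0.62 below their mean. The means were 8.74 ± 0.18 and 8.73 ± 0.60 (SD, n = 3), a difference of -0.0093 (SE 0.30), which ran from -0.30 to 0.30 when 1 array at a time was left out. Cyb5r4 was the only one of the 5 genes with another probeset of its own. That probeset read 7.53, 8.23 and 8.34 with PBS and 7.91, 9.38 and 7.31 with G-CSF, a difference of 0.17. In both probesets G-CSF replicate 2 was the highest and G-CSF replicate 3 the lowest array, and the groups overlapped.

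The arrays did not order the 5 genes alike within a group. PBS replicate 1 was the lowest PBS array for Cyb5a, Cyb5r1, Cyb5r3 and Cyb5r4 (0.78, 0.089, 0.46 and 0.17 below the group mean on the log2 scale, respectively), whereas for Cyb5b PBS replicate 3 was the lowest. Among the G-CSF arrays, replicate 3 was the lowest for Cyb5a and Cyb5r4 and the highest for Cyb5r1 and Cyb5r3. To set whole patterns side by side, the log2 values of each gene were centred on the gene's mean and compared with those of Cyb5a by the root mean square difference over the 6 arrays. It was 1.09 for Cyb5r3, 1.11 for Cyb5r4, 1.17 for Cyb5b and 1.40 for Cyb5r1. Of all genes, 26.1% were closer to Cyb5a than Cyb5r3 was, and 94.4% were closer than Cyb5r1.

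The 5 named genes with the pattern most like that of Cyb5a over the 6 arrays, predicted genes and small RNAs passed over, were Pcbd1, Mmrn1, Zdhhc4, Angpt1 and Dpy19l3. Pcbd1 encodes a dehydratase that recycles the pterin cofactor, and was the closest, with a root mean square difference of 0.28. Its log2 intensities were 6.89, 8.08 and 8.18 with PBS and 5.61, 6.48 and 5.55 with G-CSF, so PBS replicate 1 was again the lowest of its group. Mmrn1 (multimerin, a platelet protein) had 0.44, the palmitoyltransferase gene Zdhhc4 0.51, Angpt1, which encodes the ligand of the stem cell receptor Tie2, 0.51, and Dpy19l3 0.53. In all 5 the groups did not overlap, with differences from -1.84 for Pcbd1 to -1.21 for Angpt1, and 0 passed limma's adjusted p of 0.05 (adjusted p = 0.177 to 0.325). Likeness over 6 arrays rests mostly on the gap between the groups, and genes were picked for it, so it says nothing of shared control.

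**Figure D3:**
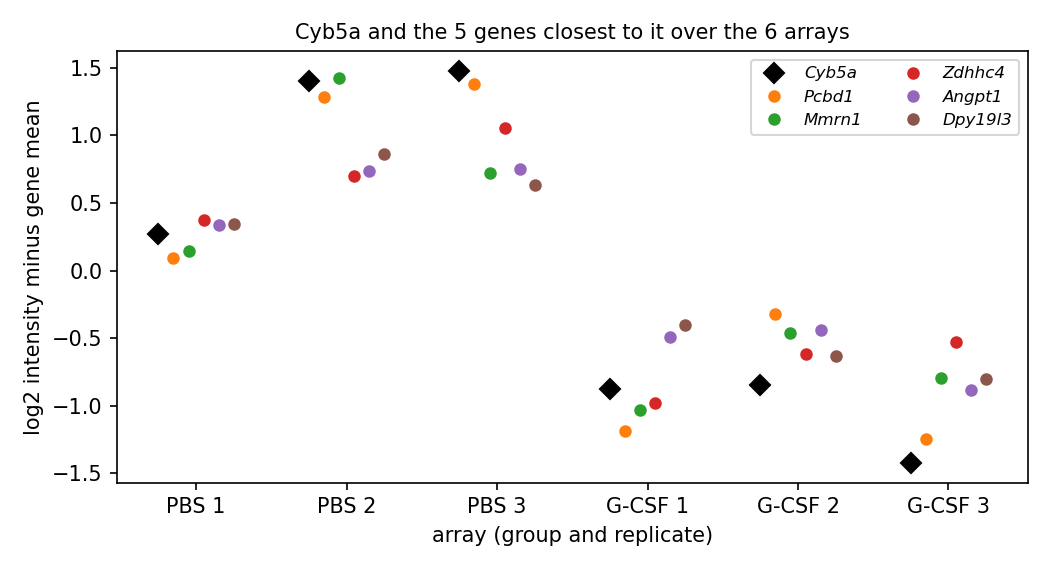
Log2 intensity minus the gene's mean over the 6 arrays, for Cyb5a (black diamonds) and the 5 genes closest to it (coloured circles), by array. Each gene has its 3 PBS values above its 3 G-CSF values, and PBS replicate 1 is its lowest PBS array.

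Genes that resemble cytochrome b5, take electrons from it, act in fatty acid elongation or belong to other electron donor systems were taken from 4 lists. These are called partner lists here, though not all their genes work with cytochrome b5. Of 49 genes in all, 44 had a probeset with 1 symbol and 37 passed the filter. By limma over all genes, 0 of the 37 were past an adjusted p of 0.05 in either direction (smallest adjusted p = 0.352). At an unadjusted p under 0.05, 2 were higher (Cmah and Degs1) and 1 was lower (Mtarc2), against 2.73% and 3.3% of all genes. Of the 37, 11 had positive and 26 negative differences, with a median of -0.088, against 7547 positive and 7447 negative and a median of 0.0015 over all genes. The groups did not overlap in 3 genes that were higher (Cmah, Degs1 and Hacd3) and 2 that were lower (Mtarc2 and Nenf) with G-CSF, against 5.77% and 5.05% of all genes. The shares of the 37 that were called or had groups without overlap are too near those of all genes to be a result about the lists. Their surplus of negative differences was not tested.

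Mtarc2 encodes the mitochondrial amidoxime reductase, a molybdenum enzyme that receives its electrons from the Cyb5r3 protein through the Cyb5b protein. It differed by -1.28 (SE 0.29, limma adjusted p = 0.352), although the genes of both its electron donors had group means that nearly coincided. Its log2 intensities were 7.70, 8.54 and 8.57 with PBS and 6.63, 7.03 and 7.31 with G-CSF, and the groups did not overlap. Mtarc1, its paralog, differed by 0.032 (SE 0.20). In the list of relatives that carry a cytochrome b5 fold or a reductase domain or take part in this relay, 9 of 10 genes were tested, with a median of -0.30. Among haem-binding relatives, Pgrmc1 (-0.71, SE 0.46), Pgrmc2 (-0.60, SE 0.30) and Nenf (-0.53, SE 0.30) also had negative differences, and none of the 3 passed. Without PBS replicate 3 they were -0.29, -0.30 and -0.17. Of the 9 relatives tested, 6 had negative and 3 positive differences. The positive ones were Mtarc1, Cyb5d2 (0.17, SE 0.16) and Cyb5d1 (0.061, SE 0.52). The reductase gene Cyb5r2 lay under the filter's limit, with log2 means of 5.09 and 5.06. The reductase-like gene Cyb5rl, just above that limit with log2 means of 5.18 and 5.18, differed by -0.0012 (SE 0.20).

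Among the enzymes that cytochrome b5 supplies with electrons, 12 of 15 genes were tested, with a median difference of -0.027. Cmah, the hydroxylase that turns N-acetylneuraminic into N-glycolylneuraminic acid with electrons from cytochrome b5, differed by 1.47 (SE 0.36, limma adjusted p = 0.403). Its log2 intensities were 5.21, 4.75 and 5.64 with PBS and 6.79, 7.24 and 5.98 with G-CSF, so the difference was in the direction opposite to that of Cyb5a. The PBS mean of Cmah (5.20) was close to the filter's limit of 5.15, near the dim end of the array. Degs1, the dihydroceramide desaturase of sphingolipid synthesis, differed by 0.74 (SE 0.29, adjusted p = 0.766). The sterol enzymes Msmo1 (-0.75, SE 0.44) and Sc5d (-0.41, SE 0.32) and the desaturases Scd2 (-0.53, SE 0.39) and Fads1 (-0.16, SE 0.32) had overlapping groups. Without G-CSF replicate 1 the difference was -0.38 for Msmo1 and -0.085 for Scd2, and without PBS replicate 2 it was -0.16 for Sc5d. Scd1, the stearoyl-CoA desaturase, was left out by the filter on its mean, with log2 intensities of 5.43, 5.76 and 5.41 with PBS and 4.57, 4.57 and 4.91 with G-CSF. Fitted without the filter it differed by -0.85 (SE 0.18, limma adjusted p = 0.35), at signals near the dim end of the array.

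Fatty acid elongation, whose products the desaturases act on, had 10 of 13 genes tested and a median of -0.13. Elovl6, an elongase of saturated fatty acids, differed by -0.84 (SE 0.38) and Elovl5, an elongase of polyunsaturated ones, by -0.49 (SE 0.44), both with overlapping groups. The dehydratase gene Hacd3 differed by 0.32 (SE 0.16) and the reductase gene Tecr by 0.20 (SE 0.18). Of the other electron donors and the enzymes they supply, 6 of 11 genes were tested, with a median of -0.21. P450 reductase (Por), the other main microsomal donor, had no probeset with 1 symbol and was not analysed here. The sterol demethylase Cyp51 differed by -0.87 (SE 0.41), squalene epoxidase Sqle by -0.53 (SE 0.24), ferredoxin Fdx1 by -0.33 (SE 0.38) and Mtrr by -0.088 (SE 0.27).

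**Figure D4:**
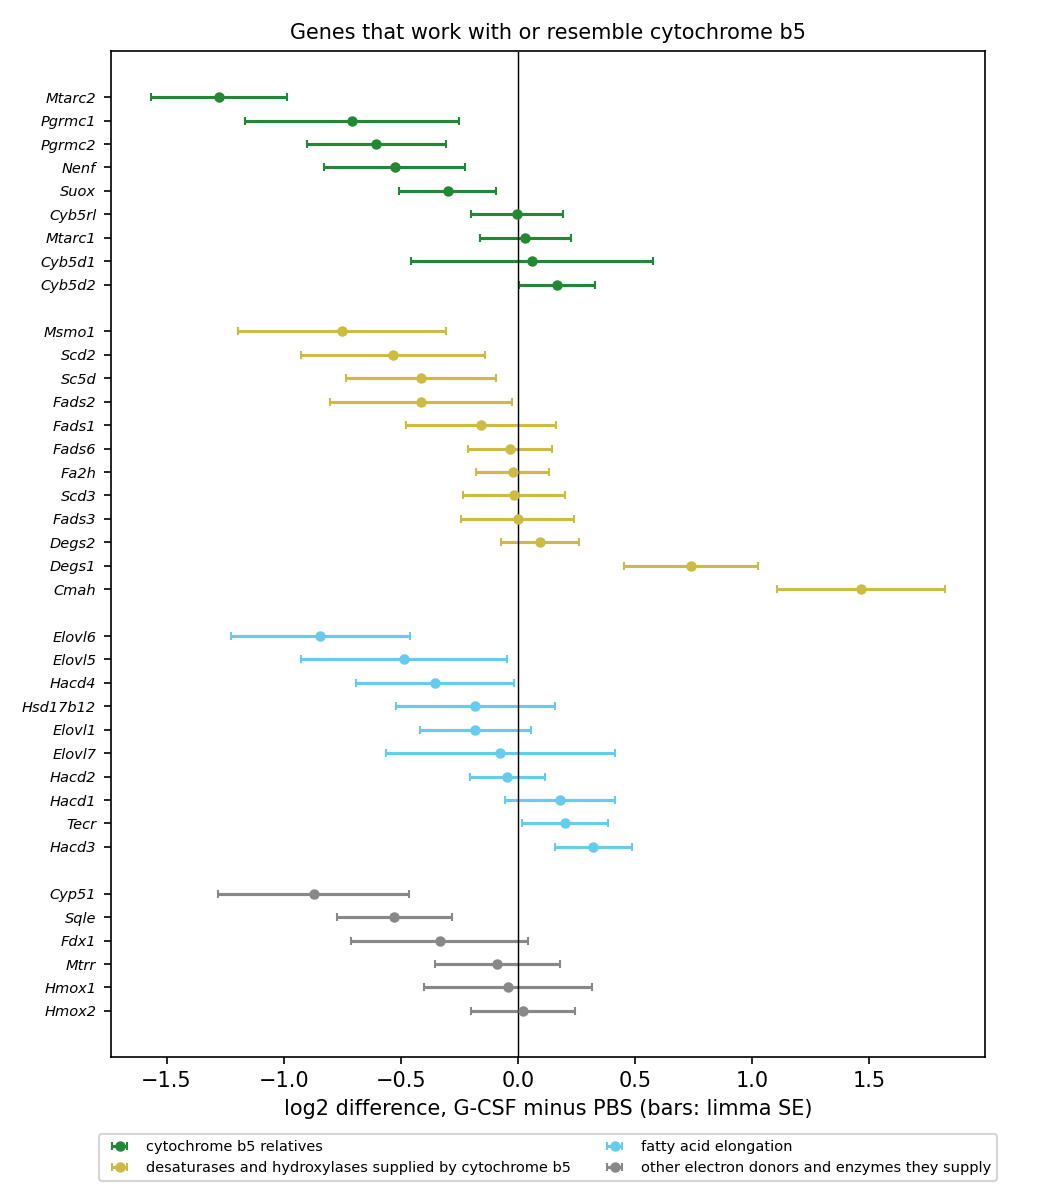
Log2 difference, G-CSF minus PBS, with limma's SE as bars, for the 37 genes tested in the 4 lists, coloured by list. Cmah (1.47) and Mtarc2 (-1.28) lie at the ends, and 0 of the 37 passed at an adjusted p of 0.05.

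Neutrophil, monocyte and megakaryocyte markers had list means that lay apart between the groups, although by limma 0 markers of any list passed an adjusted p of 0.05. At an unadjusted p under 0.05, 11 of 12 neutrophil and 3 of 7 monocyte markers (Lyz2, Ccr2 and Cd14) were higher, and 3 of 8 megakaryocyte markers (Pf4, Mmrn1 and Ppbp) and 2 of 10 stem cell gate and identity markers (Kit and Tek) were lower, against 2.73% of all genes higher and 3.3% lower. Of 12 neutrophil markers 11 were higher in all G-CSF arrays, with the exception of Ly6g, and the mean log2 intensity of the list ran from 8.44 to 9.35 in PBS arrays and from 10.4 to 11.1 in G-CSF arrays. All 8 megakaryocyte and platelet markers tested had negative differences, with list means of 6.58 to 6.85 and of 5.94 to 6.05, and in Pf4 (-1.92) and Mmrn1 (-1.52) the groups did not overlap. Of 10 stem cell gate and identity markers, 9 had negative differences, with a median of -0.21, against 7447 of 14994 among all genes. Their list means, 7.27 to 7.45 with PBS and 6.87 to 7.29 with G-CSF, overlapped. Of 7 monocyte markers, 4 (Csf1r, Lyz2, Ccr2 and Cd14) were higher in all G-CSF arrays. Among all genes tested, every G-CSF array was brighter than every PBS array in 5.77% and dimmer in 5.05%. The 5 erythroid markers tested had overlapping groups and list means of 6.07 to 6.48 and of 6.05 to 6.20, and the globin genes had no probeset with 1 symbol. The 4 B lymphocyte and 3 T and NK lymphocyte markers tested also had overlapping groups. Marker RNA in a pool does not show which cells held it. How the marker differences relate to those of Cyb5a and Cyb5r1 was not tested. Within the PBS group the array with the least Cyb5a, replicate 1, also had the lowest neutrophil (8.44), megakaryocyte (6.58), erythroid (6.07), monocyte (6.24) and stem cell marker (7.27) means. Its B lymphocyte mean (6.21) lay between those of the other PBS arrays, and its T and NK lymphocyte mean (5.91) was the highest. Within the G-CSF group the array with the least Cyb5a, replicate 3, had the highest megakaryocyte mean (6.05 against 5.94 and 6.02). Its monocyte mean (6.91) was also the highest, and its erythroid (6.05) and B lymphocyte (6.04) means were the lowest. Its neutrophil, stem cell and T and NK lymphocyte means lay between those of the other G-CSF arrays. Of the sort markers, Kit (10.0 ± 0.23 and 9.04 ± 0.36, SD, n = 3) differed by -0.98 (SE 0.23, limma adjusted p = 0.374), and Slamf1 (-0.20), Cd48 (-0.11) and Itga2b (-0.16) had overlapping groups. The Sca-1 gene was not analysed here.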

How the data were processed

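Gene expression was measured in 6 samples on MoGene 1.0 ST arrays, after column purification and NuGen Ovation amplification of the RNA, per the labels. The values deposited by the authors are probeset intensities on a linear scale (2.70 to 19069), made with RMA according to the submitters' processing notes. The sources used here do not give its software, its version or the set of arrays it was run on. Array medians were 56.2 to 61.7, and the number of arrays limits the precision.

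Intensities were taken to log2. Of 35554 probesets, 21789 had 1 gene symbol in the platform annotation, 1621 had several and 12144 were not listed. Symbols were updated by gene identifier from a RefSeq table (GRCm38.p6), where 21698 of these probesets' identifiers were found. The lowest 25% by mean were left out, and the brightest probeset stood for a gene. Limma 3.58.1 (R 4.3.3, lmFit and eBayes, no covariate) was fitted over 14994 genes with Benjamini-Hochberg adjustment, two-sided, and was tested on simulated arrays. It passed 4 genes, all higher with G-CSF (Slfn4, Lilr4b, Wfdc17 and Ly6a2). Limma's p-values weigh each difference against the spread between pools, moderated over all genes, and not against that between single mice.

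The 5 genes and the lists were chosen with earlier results of these data known. The rule for named genes takes the 5 genes, up to 4 genes with the smallest p per partner list, 13 partner genes whatever their result, the 5 genes most like Cyb5a, the sort markers and up to 2 genes per marker list. Replicate numbers were not used to pair the arrays in the main fit. Deviations from group means of same-numbered arrays correlated at 0.29, 0.019 and 0.19 over genes. Those of differently numbered arrays correlated at -0.28 to 0.10, so whether the numbers mark pairs is not settled. Alternatives changed the filter, normalization, variance model, probeset rule, block and arrays used.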

Additional observations from a re-analysis of the deposited data

How the results depend on the processing

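The difference of Cyb5a ran from -2.49 to -1.88 with 1 array left out and from -2.12 to -2.08 otherwise. Cyb5r1 ran from 0.22 to 0.65 and from 0.46 to 0.47. In both genes the groups did not overlap, so leaving out 1 array could not turn the sign. The replicate block leaves a difference as it is. Cyb5b, Cyb5r3 and Cyb5r4 took both signs and moved by less than their residual SDs over both groups (0.38, 0.30 and 0.44). By limma, 0 of the 5 genes and 0 of the 37 partner genes were called under each of the 13 alternatives. Of all genes tested, 0 were called lower with G-CSF under any of them. So few genes passed at all that nothing is read from these counts. Over all genes, 4 were higher, 12 with quantile normalization again, 2 with arrays centred on the median, 6 with trend and robust variance, and 0 to 6 with 1 array left out (0 in 5 of the 6 cases, 6 without G-CSF replicate 1). With the replicate block there were 5, and 5 of the 6 arrays correlated best with their own number in the other group. With 1 array left out, signs turned in Mtrr (range -0.37 to 0.064, where leaving out PBS replicate 1 and G-CSF replicate 3 gave 0.046 and 0.039), in Fads1 (-0.46 to 0.18), in Mtarc1 (-0.13 to 0.19, with -0.0020 on leaving out G-CSF replicate 1) and in Cd48 (-0.53 to 0.23). Leaving out 1 array also moved Elovl5, Fdx1, Tecr and Slamf1 by over 1.5 times, to as little as -0.20, -0.037, 0.051 and -0.012. The same held for Cyp51, Degs1, Elovl6, Sqle, Tek and Itga2b, which went to -0.51, 0.46, -0.55, -0.34, -0.31 and -0.088. The cause was not tested.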
